A study of Caenorhabditis elegans with 37 samples.

Results

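The insulin-like peptide genes of Caenorhabditis elegans were followed across RNA-seq libraries of sorted cells. The family was chosen by name alone: a gene was a member if its symbol is ins- plus a number, or daf-28. This gave 39 of the 30631 genes in the count table, of which 27849 carried a symbol. The labels put 37 libraries in 10 groups, and the number after a group's name is the label's library number. The sensory neurons ASG, AWA and AWB had 4, 4 and 5 libraries. The interneurons AVE and AVG had 3 libraries each, the motor neurons DD and VD, which use GABA, had 3 and 4, and the mechanosensory neuron PVD had 2. A pan-neuronal group, sorted on a rab-3 marker, had 5 libraries, and an all-cell group, sorted on stains for live and dead cells alone, had 4. The series sets each type against other types, against the pan-neuronal group and against the all-cell group. Worms of all groups received no treatment and were raised on 8P plates with the Escherichia coli strain NA22. The genotype and stage of the worms, the promoter that marked each type and the number of animals per sort are not analysed here, since no source used gives them.

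Insulin-like peptides are small secreted signals. In the worm they act on DAF-2, the sole receptor of the insulin/IGF type, which works through a kinase cascade (AGE-1, PDK-1, AKT-1 and AKT-2) to keep the FOXO factor DAF-16 out of the nucleus. The pathway governs entry into the dauer stage, a stress-resistant larva, as well as metabolism, lifespan and learning. Some members activate the receptor: DAF-28, INS-4 and INS-6 promote reproductive growth over dauer entry, and INS-7 and INS-35 also act as agonists. Others oppose it, among them INS-1, INS-17 and INS-18. The peptides are cut from longer precursors by proprotein convertases and leave the cell from dense-core vesicles. Sensory neurons are a known source, and daf-28 is known from the amphid neurons ASI and ASJ.

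All 39 members are protein coding in the WBcel235 annotation and lie on each of the 6 chromosomes. Chromosome II holds 15, chromosome I 10, chromosome III 5, chromosome IV 4, chromosome V 3 and chromosome X 2. Of these genes 25 lie within 20 kb of another member, in 7 positional groups, and 14 stand alone. The group with the most members, on chromosome I from 14012369 to 14037777, holds ins-28, ins-29, ins-25, ins-27, ins-24, ins-30 and ins-26. A group of 6 lies on chromosome II from 5988524 to 6011321 (ins-2 to ins-6 and ins-20), and a group of 3 on chromosome III from 10023752 to 10028697 (ins-21, ins-22 and ins-23). Exons of 5 members overlap exons of another gene in that annotation: ins-10, ins-13, ins-34, ins-36 and ins-37. For ins-10 the overlap is with vps-39 on the opposite strand (74 bases), and for ins-13 with acdh-2 on the same strand (87 bases). Whether counting used the strand, and how reads that match several genes were treated, is not given in the sources used here, so counts of these 5 genes and of close relatives are uncertain to that extent.

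Library totals ran from 251586 to 5415925 counts (median 1638118). Marker genes were checked against the labels. Markers of ASG, AWA, DD and PVD summed to 10298 to 22179 CPM (counts scaled by the library's total and TMM factor) in ASG, 1309 to 15494 in AWA, 5048 to 7929.6 in DD and 1749 to 4225 in PVD libraries. Of the 5 PVD markers, 1 had no count in PVD libraries. AVE markers summed to 424 to 887 CPM in AVE but 393 to 1629.7 in AVG libraries, and AVG markers to 508 to 1031 CPM in AVG but 490.4 to 898 in ASG libraries. DD and VD are close relatives, and the DD marker flp-13 stood at 675 to 1706 CPM in DD and 173 to 341 CPM in VD libraries. VD markers summed to 2101 to 3853 CPM in VD but 4394 to 6726 in DD libraries. The VD list shares unc-25, unc-47 and unc-30 with the DD list and adds unc-55, so its sum could not tell VD from DD. AWB markers summed to 181 to 319 CPM in ASG libraries, above AWB 51 and 52 and below the other 3 AWB libraries. The markers of several libraries stood apart from their group. AWA 20 had 1309 CPM of AWA markers, the lowest of its group, with 11734 CPM of intestine markers against 91.2 to 2448 in the other AWA libraries. AWB 51 had 28.8 CPM of AWB markers against 148 to 583 in the other AWB libraries. Pan-neuronal 1 had 405 CPM of odr-10, the diacetyl receptor of AWA, against 5.92 to 15.9 CPM in the other pan-neuronal libraries. All-cell 27 had 2264 CPM of pan-neuronal markers against 552 to 918 in the other all-cell libraries, and AVG 45 had 9754 against 2605 to 4530.2 in the other AVG libraries. VD 78 had 651 CPM of coelomocyte markers against 99.6 to 232 in the other VD libraries.

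AWA had the highest median share of counts from the family, 0.744% of all counts, with a range of 0.160% to 1.03%. AVG had 0.0489% to 0.138% and AWB 0.0177% to 0.131%. The other types had 0.0206% to 0.0408% in ASG, 0.0194% to 0.0347% in AVE, 0.0118% to 0.0278% in DD, 0.0120% to 0.0201% in VD and 0.0111% to 0.0115% in PVD. Pan-neuronal libraries had 0.172% to 0.412% (median 0.193%) and all-cell libraries 0.0266% to 0.0807%. The members summed to 7369 ± 5352 CPM in AWA (SD, n = 4), 995 ± 357 in AVG (n = 3), 879 ± 504 in AWB (n = 5), 2629 ± 1158 in pan-neuronal (n = 5) and 369 ± 175 in all-cell libraries (n = 4). In sorted bulk samples fewer cells of a type and less RNA per cell cannot be told apart.

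The member with the highest mean level differed between groups. By CPM per kb of the deposited gene length (mean ± SD over libraries), the scale on which genes can be compared, ins-26 was first in AWA at 3693 ± 2869 (n = 4) and made up 25.8% of the family's sum there. It was followed by ins-30 (2408 ± 1721), ins-28 (2270.4 ± 1450.1) and ins-24 (1465 ± 1015). In AVG, ins-17 reached 1362 ± 448 CPM per kb and made up 89.5% of the sum, and it also led in AVE (84.9 ± 35.1), PVD (42.1 ± 18.004) and pan-neuronal libraries (1061 ± 149). The gene daf-28 led in AWB (349.7 ± 306), ASG (89 ± 31.3) and all-cell libraries (82.1 ± 38.1), and ins-27 in DD (53.9 ± 26.9) and VD (56.4 ± 40.6). The mean ± SD of the first gene overlapped that of the second in every group but AVG. The order in those groups is thus uncertain. The second gene was ins-17 in all-cell (77.5 ± 40.2), ins-26 in ASG (78.8 ± 57.4) and ins-28 in pan-neuronal libraries (960.4 ± 164.9). It was daf-28 in DD (39.5 ± 19.4) and VD (34.5 ± 11.5). For AWB (237 ± 120.7) and AVE (53.9 ± 35.8) it was ins-27, and for PVD ins-24 (19.2 ± 17.9). In AVG the second was ins-27 at 30.5 ± 31.6.

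**Figure D1:**
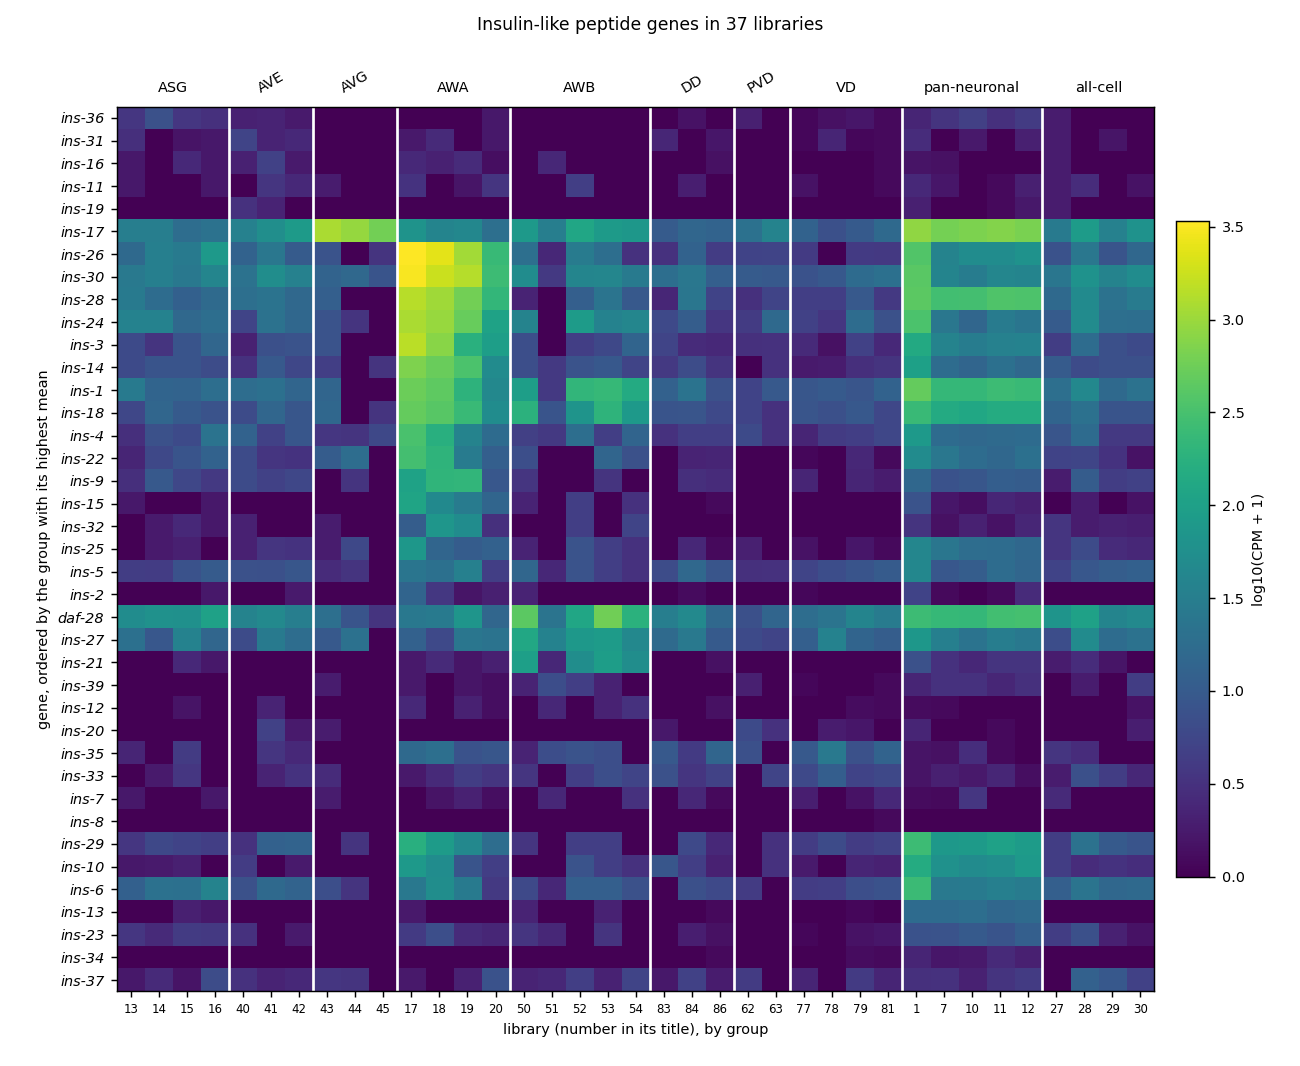
Level of each insulin-like gene (rows) in each of the 37 libraries (columns, by group), as log10(CPM + 1). Colours run from dark (0) to yellow (high). Many rows are brightest in the AWA columns, AWA 20 less so than the others, and pan-neuronal 1 is brighter than the other pan-neuronal columns in 21 of 27 tested rows.

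Of the 39 members 21 averaged at least 20 CPM in some group. Among the 8 types, 17 of these 21 were highest in AWA, 3 in AWB (daf-28, ins-21 and ins-27) and 1 in AVG (ins-17). Over all 10 groups 14 were highest in AWA, 3 in AWB, 1 in AVG and 3 in pan-neuronal libraries (ins-6, ins-10 and ins-29). The group with the highest mean overlapped the next one in at least 1 library for each of the 21 but ins-15. The number of members seen depends on depth. Libraries of AWA had a count for 32 members on average, AVG libraries for 14.3, PVD libraries for 18 and pan-neuronal libraries for 34.4, and 4 members had a count in every library (daf-28, ins-4, ins-17 and ins-30).

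Pan-neuronal libraries were compared with all-cell libraries to see which members are read in neurons over the whole animal. Of 27 members tested, 16 were higher in pan-neuronal libraries and 0 lower, where 32.2% of all 15181 genes tested were higher and 26.9% lower (edgeR, adjusted p under 0.05). The median log2 difference was 2.25 over the tested members and 0.00013 over all genes tested. For 15 of the 16 no library of one group reached into the other, ins-4 being the exception. Of all genes tested 28.9% were called higher with no such overlap, 90% of those called higher, so the members' share was near the background. Members that passed the low-count filter through 1 group alone were ins-13 and ins-23 (pan-neuronal), ins-15 and ins-32 (AWA), ins-21 (AWB), ins-33 (VD) and ins-37 (all-cell). For these the filter itself favoured a difference where that group is compared, though ins-37 was not called in this fit. At an unadjusted p under 0.05, 21 members were higher and 1 lower. The share of all genes at that threshold was not computed, here or below. DESeq2, here and below run on all 39 members without this filter, called 17 higher and 1 lower. With library totals alone the median over all genes moved by -0.47, and 14 members were higher and 2 lower (ins-33 and ins-37).

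The antagonist gene ins-17 (chromosome III, 4476918 to 4477572) had 870.0, 609, 686, 744 and 659 CPM in pan-neuronal libraries, against 26.7, 85.98, 34.4 and 61.7 CPM in all-cell libraries. The groups were far apart, and the log2 difference was 3.77 ± 0.41 (SE, adjusted p = 1.7e-08). The antagonist genes ins-1 and ins-18 went the same way. For ins-1 the values were 489, 225, 224, 258 and 248 CPM in pan-neuronal libraries against 18.4, 43.4, 15.2 and 20.7 CPM in all-cell libraries, a log2 difference of 3.58 ± 0.70 (adjusted p = 7.24e-05). For ins-18 they were 242, 142.002, 127, 149 and 148 CPM against 12.5, 19.5, 7.33 and 7.23 CPM in all-cell libraries, a log2 difference of 3.82 ± 0.64 (adjusted p = 1.03e-05). Among the agonist genes, daf-28 (chromosome V, 19815133 to 19816454) had 265, 229, 224, 285 and 311 CPM in pan-neuronal libraries, against 65.2, 103, 37.8 and 45.3 CPM in all-cell libraries (log2 difference 2.07 ± 0.55, adjusted p = 0.00197). Its 5 pan-neuronal values lay close together, while all-cell 28 was the highest of its group, as it was for 21 of the 27 tested members.

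ins-28 and ins-29, neighbours on chromosome I, had 436, 287, 298, 356 and 352 CPM and 264, 74.0, 83.7, 104.3 and 86.4 CPM in pan-neuronal libraries, against 15.03 to 47.9 and 3.34 to 20.4 CPM in all-cell libraries. Their log2 differences were 3.64 ± 0.67 and 3.63 ± 0.64 (adjusted p = 3.25e-05 and 2.12e-05). ins-13 was seen almost only in pan-neuronal libraries: it had 16.04, 16.1, 18.1, 13.9 and 15.4 CPM there, from 289 counts, and 0 counts in all-cell libraries. It was thus at least 32.7-fold higher against the limit of 3 counts over the all-cell group. ins-10 had 147, 59.2, 49.6, 55.3 and 76.5 CPM in pan-neuronal libraries, against 3.34, 1.77, 2.25 and 1.93 CPM in all-cell libraries (log2 difference 5.04 ± 0.83, adjusted p = 1.02e-05). Both ins-10 and ins-13 are among the members whose exons overlap another gene. Since ins-13 passed the low-count filter through the pan-neuronal group alone, the filter favoured its difference.

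The other members called here were ins-3, ins-4, ins-6, ins-14, ins-22, ins-23, ins-25 and ins-26. Log2 differences were 1.63 for ins-23, where the filter favoured a difference, and from 2.03 (ins-4) to 3.21 (ins-22) for the rest. Not called were ins-5, ins-9, ins-15, ins-21, ins-24, ins-27, ins-30, ins-32, ins-33, ins-35 and ins-37. Of these ins-30 averaged 113 ± 170.1 CPM in pan-neuronal (n = 5) and 43.3 ± 16.9 CPM in all-cell libraries (n = 4), and ins-24 84.7 ± 139.6 CPM and 23.6 ± 17.3 CPM (SD). Without pan-neuronal 1 their pan-neuronal means were 36.8 and 22.3 CPM (n = 4), both below the all-cell means.

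**Figure D2:**
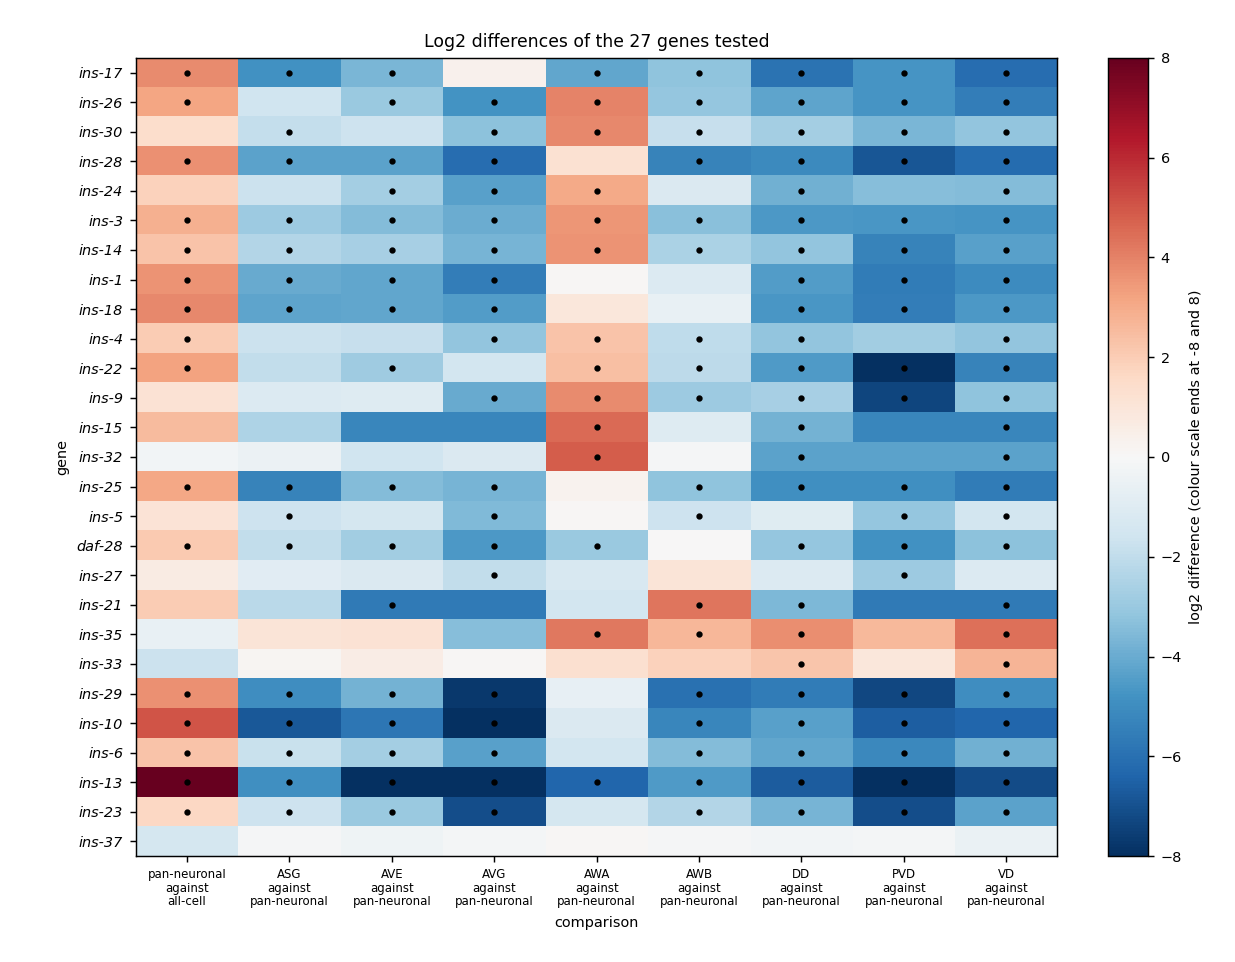
Log2 difference of each tested insulin-like gene (27 rows) in pan-neuronal against all-cell libraries and in each type against pan-neuronal libraries (9 columns), red for higher and blue for lower in the group named first in the column, with a colour scale that ends at -8 and 8. Dots mark adjusted p under 0.05. The pan-neuronal column is red in 16 called rows, the AWA column is red in 11 and blue in 3, and the DD, VD, PVD, AVE, AVG and ASG columns are blue in 15 to 23.

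Pan-neuronal 1 carried much of the pan-neuronal level of several members. It was the highest of the 5 pan-neuronal libraries for 21 of 27 tested members, and the median ratio of its level to the mean of the other 4 was 2.64. For 17 members the ratio was over 2 and for 7 it was over 5. ins-24 stood highest in this respect, with 334 CPM in pan-neuronal 1 against 13.7 to 28.2 CPM in the other 4, a ratio of 15.01. ins-30 and ins-6 had ratios of 11.3 and 8.98, and ins-15, ins-26, ins-14 and ins-4 had 8.23, 7.36, 6.27 and 5.12. In contrast the ratio was 1.01 for daf-28, 1.01 for ins-13, 1.29 for ins-17 and 1.35 for ins-28.

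Markers of several amphid sensory neurons were also higher in pan-neuronal 1. ssu-1 and trx-1, known from ASJ, stood at 197 and 53.4 CPM there, against 0.429 to 2.39 and 0.683 to 3.33 CPM in the other pan-neuronal libraries. daf-7, known from ASI, stood at 650.2 CPM against 172 to 221 CPM, and the ASG gene gcy-15 at 492.7 CPM against 119.9 to 141.8 CPM. Their part in the result was not tested. The labels give pan-neuronal 1 and AWA 17 the same index sequence, and do not say whether they shared a sequencing run. Index sequences are shared by 5 other pairs of libraries of different groups as well.

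Without pan-neuronal 1, 14 members were called higher in pan-neuronal than in all-cell libraries and 0 lower. The calls of ins-4 (log2 difference 1.16, edgeR adjusted p = 0.15) and ins-6 (0.87, adjusted p = 0.214), both agonist genes, did not hold without it. ins-6 had 255, 25.7, 26.7, 32.5 and 28.7 CPM in pan-neuronal libraries and 10.9, 22.2, 14.1 and 14.9 CPM in all-cell libraries, so that 4 of the 5 pan-neuronal values lay just above the all-cell range. ins-17, ins-1, ins-18, daf-28 and ins-28 kept log2 differences of 3.69, 3.30, 3.63, 2.07 and 3.54 without it. Those of ins-3, ins-14 and ins-26 stayed called but dropped to 2.14, 1.25 (adjusted p = 0.037) and 1.96, against 2.83, 2.28 and 3.14 with all libraries. The call of ins-4 was also lost without all-cell 29 or all-cell 30 (adjusted p from 0.0657), and that of ins-23 without pan-neuronal 12, all-cell 29 or all-cell 30 (adjusted p = 0.0585 to 0.131).

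**Figure D3:**
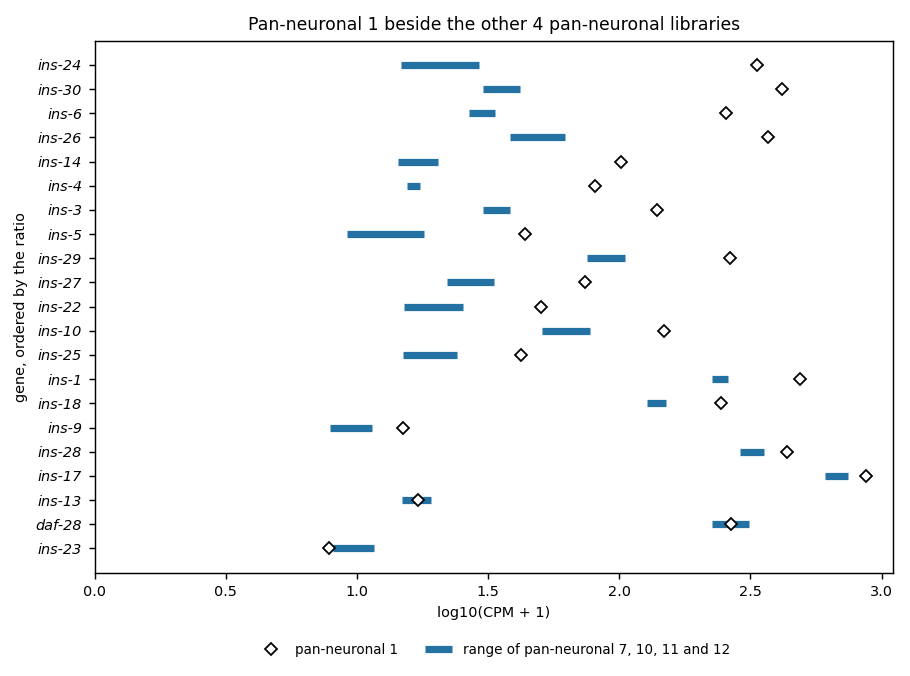
Level of the 21 tested insulin-like genes that averaged at least 5 CPM in the other 4 pan-neuronal libraries, as log10(CPM + 1), in pan-neuronal 1 (diamonds) and as the range of those 4 (bars), ordered by the ratio. ins-24, ins-30 and ins-6 lie 8.98 to 15.01 times above the mean of the other 4, while daf-28, ins-13 and ins-17 lie within 1.01 to 1.29 times of it.

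AWA, an olfactory neuron pair that senses diacetyl and other attractive odours, was the type in which the most members were high. Against the mean of the other 7 types, 20 of 27 tested members were higher in AWA and 0 lower, where 13.2% of all genes tested were higher and 4.51% lower (edgeR, adjusted p under 0.05). The median log2 difference was 4.82 over the tested members and 0.041 over all genes. The log2 levels of the 7 types are averaged in this contrast, and types with few counts lower that average. ins-15 and ins-32 passed the filter through AWA alone, so the filter favoured their difference. Not called were daf-28, ins-13, ins-17, ins-21, ins-27, ins-33 and ins-37.

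ins-26 (chromosome I, 14037151 to 14037777) had 3383, 2429, 1111 and 241 CPM in AWA 17, 18, 19 and 20. Its values in the 24 libraries of the other types reached at most 78.5 CPM, in ASG 16. The AWA values themselves spanned a wide range, with AWA 20 the lowest, and the log2 difference from the other types was 7.82 ± 0.52 (adjusted p = 5.46e-14). ins-30, its neighbour, had 3079.9, 1778, 1379 and 266 CPM in AWA and at most 52.7 CPM in other types (6.43 ± 0.45, adjusted p = 1.87e-13). ins-28 had 1412, 1047, 596 and 215 CPM in AWA and at most 27.8 CPM in other types (6.69 ± 0.43, adjusted p = 2.71e-14). ins-24, of the same positional group, had 1197, 977, 519 and 108 CPM in AWA and at most 84.7 CPM in other types (5.995 ± 0.57, adjusted p = 1.84e-10). In each of these 4 genes every AWA library lay above every library of the other types.

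Members elsewhere in the genome were also high in AWA. ins-3 (chromosome II, 5990099 to 5990768) had 1463, 786, 174 and 94.4 CPM in AWA and at most 13.4 CPM in other types (7.47 ± 0.48, adjusted p = 2.3e-14). ins-14 (chromosome II, 6745435 to 6745814) had 707, 527, 334 and 49.5 CPM and at most 8.78 CPM in other types (7.06 ± 0.41, adjusted p = 3.22e-15). For both, all 4 AWA libraries lay above the rest, as they did for ins-15, which had 115, 45.9, 28.8 and 13.1 CPM in AWA and at most 3.53 CPM elsewhere among the types. ins-9 had 106, 204, 213 and 8.13 CPM in AWA and at most 8.80 CPM in other types, which AWA 20 alone did not exceed (6.95 ± 0.49, adjusted p = 3.04e-13). ins-32 had 9.88, 70.2, 51.3 and 2.12 CPM in AWA and at most 4.28 CPM in other types.

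The agonist gene ins-4 had 328, 169.7, 36.7 and 15.9 CPM in AWA and at most 21.2 CPM in other types (4.82 ± 0.46, adjusted p = 2.39e-10). The antagonist genes ins-1 and ins-18 had 543, 449, 193 and 42.8 CPM and 491, 409.7, 249 and 51.6 CPM in AWA, and log2 differences of 4.35 ± 0.42 and 4.93 ± 0.38 (adjusted p = 3.39e-10 and 1.82e-12). AWB was the next type for both, and its libraries overlapped those of AWA. The agonist gene ins-6 averaged 26.9 ± 20.6 CPM in AWA (n = 4) and 21.7 ± 10.8 CPM in ASG (n = 4), ranges that overlap, and its call was lost without AWA 18 (adjusted p = 0.0740). ins-22 had 298, 194, 28.8 and 10.6 CPM in AWA and at most 17.1 CPM in other types. ins-25, ins-29 and ins-10 averaged 26.98 ± 31.2 CPM, 78.3 ± 65.9 CPM and 35.4 ± 36.6 CPM in AWA (SD, n = 4), and at most 2.80, 8.63 and 4.15 CPM on average in another type. The remaining calls were ins-5, ins-23 and ins-35, with 19.6, 3.06 and 11.999 CPM on average in AWA.

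AWA 20 was the lowest AWA library for 20 of the 27 tested members and AWA 17 the highest for 16. The sums of AWA markers in AWA 17, 18, 19 and 20 were 15494, 7802, 3983 and 1309 CPM, those of pan-neuronal markers 4457, 3216, 3238 and 1268 CPM and those of intestine markers 91.2, 2448, 598 and 11734 CPM. The values of ins-26 had the same order as the AWA marker sums in these 4 libraries. The part of other cells in these levels was not tested. With all 4 libraries, 9 of the 20 called members had every AWA library above every library of the other types. Of all genes tested 1.68% were called higher and apart in this way, 12.7% of those called higher. Without AWA 20 there were 15 such members, and 3.62% of all genes tested, 27.4% of those called higher. With AWA 20 and AWB 51 left out, 20 members were called in AWA against the other types, as many as before.

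Against pan-neuronal libraries, 11 members were higher in AWA and 3 lower, where 18% of all genes tested were higher and 19.8% lower. Tested members had a median log2 difference of 0.89 and all genes of 0.21. Of 12 pan-neuronal markers 8 were lower in AWA (median -1.16), and of 12 intestine markers 9 were higher. Their part in these differences was not tested. Higher were ins-3, ins-4, ins-9, ins-14, ins-15, ins-22, ins-24, ins-26, ins-30, ins-32 and ins-35, with log2 differences from 2.26 (ins-4) to 4.81 (ins-32). For ins-15 and ins-35 alone the libraries of the groups did not overlap. With pan-neuronal 1 set aside, each AWA library lay above the pan-neuronal libraries for 7 of the 21 members with at least 20 CPM in some group. They were ins-3, ins-14, ins-15, ins-24, ins-26, ins-30 and ins-32. The share of all genes apart in these ways was not computed, so these counts have no background. For ins-15 and ins-32, which passed the filter through AWA alone, the filter favoured a difference. The overlaps came in part from pan-neuronal 1. Setting that library aside left 11 members higher and 3 lower and gave ins-30 a log2 difference of 5.46 (adjusted p = 1.23e-08), where it was 3.85 with all libraries, and ins-24 of 4.96 (adjusted p = 6.66e-06), where it was 3.04. Without AWA 17, ins-4 (1.37, adjusted p = 0.0912) and ins-22 (1.65, adjusted p = 0.0716) were no longer called.

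The 3 members lower in AWA than in pan-neuronal libraries were ins-17, daf-28 and ins-13. ins-17 had 64.6, 38.7, 42.3 and 18.4 CPM in AWA, against 609 to 870.0 CPM in pan-neuronal libraries (log2 difference -4.13 ± 0.42, adjusted p = 3.25e-09). daf-28 had 25.1, 26.5, 68.8 and 13.8 CPM in AWA, against 224 to 311 CPM in pan-neuronal libraries (-2.97 ± 0.58, adjusted p = 0.000102). Neither gene's ranges touched. ins-28, high in AWA among the types, did not pass the test against pan-neuronal libraries, with 817 ± 522 CPM in AWA (n = 4) and 346 ± 59.4 CPM in pan-neuronal libraries (n = 5).

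**Figure D4:**
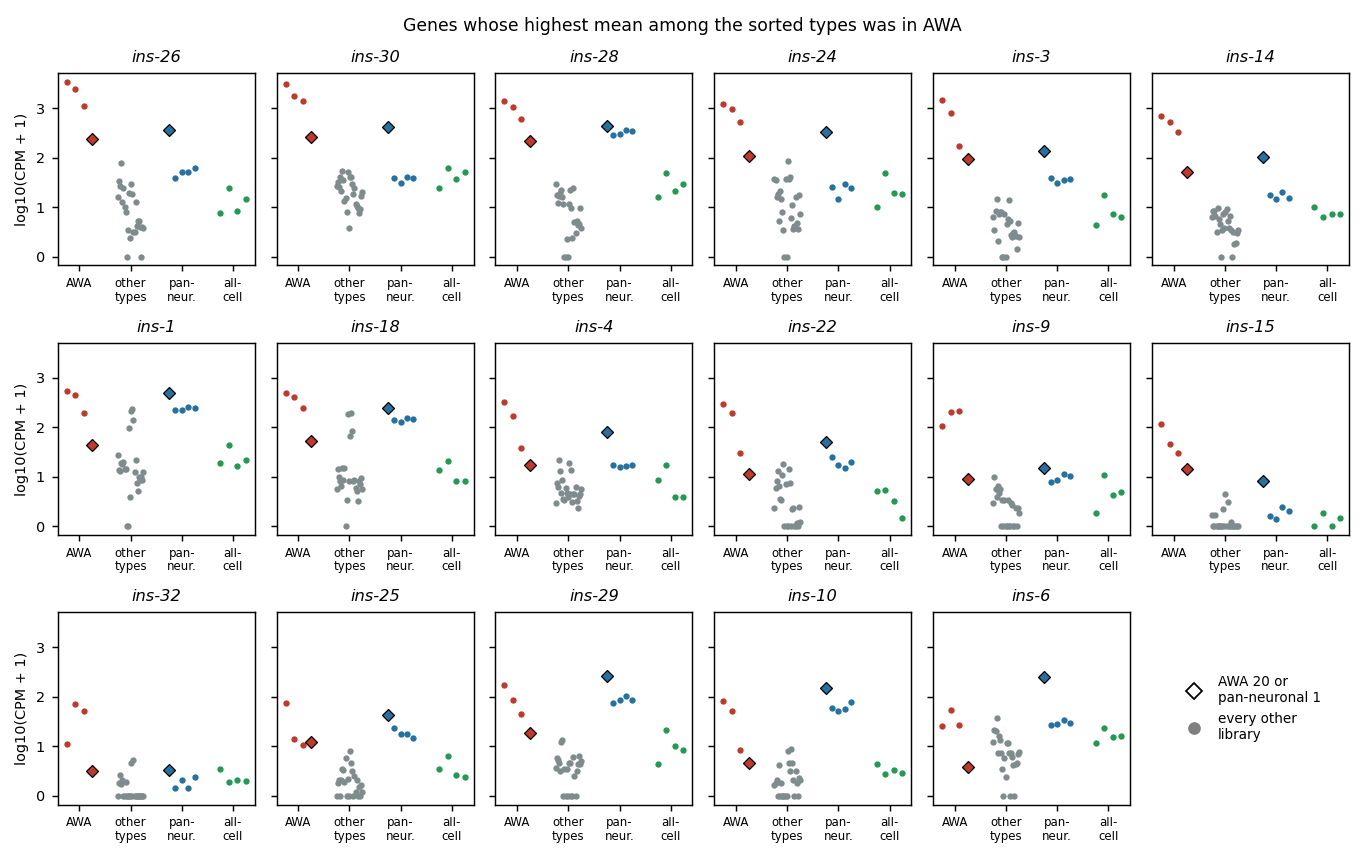
Levels of the 17 members highest in AWA among the types, in AWA libraries, libraries of the other 7 types, pan-neuronal and all-cell libraries, on a log10(CPM + 1) axis. Diamonds mark AWA 20 and pan-neuronal 1. For ins-26 the AWA points run from 241 to 3383 CPM, above all points of the other types.

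AWB, a sensory neuron pair that drives avoidance of repellent odours, had a different set of leading members. Against the other types, 6 of 27 tested members were higher and 0 lower, where 11.4% of all genes were higher and 5.95% lower. They were ins-21, daf-28, ins-18, ins-1, ins-27 and ins-17. ins-21 (chromosome III, 10023752 to 10024208) had 97.2, 1.44, 52.96, 91.7 and 53.5 CPM in AWB 50 to 54 and at most 1.66 CPM in a library of another type, with a log2 difference of 8.56 ± 0.62 (adjusted p = 3.5e-11). It was near 0 in every type library but 4 of the 5 from AWB. Since it passed the filter through AWB alone, the filter favoured this difference. AWB 51, with 1.44 CPM, did not show it.

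daf-28 had 429, 21.6, 120.0, 587 and 178 CPM in AWB and at most 103 CPM in another type, in ASG 16 (log2 difference 3.41 ± 0.35, adjusted p = 1.81e-09). Here too AWB 51 fell among the other types while the other AWB libraries lay above them. ins-27, of the chromosome I group, had 129, 36.0, 74.1, 85.8 and 42.8 CPM in AWB (2.50 ± 0.40, adjusted p = 1.23e-05), and was the gene of that group not highest in AWA. The antagonist genes ins-1 and ins-18 had 94.7, 2.88, 212, 229 and 141 CPM and 183, 7.20, 67.1, 197 and 81.3 CPM in AWB, with log2 differences of 2.999 ± 0.43 and 3.25 ± 0.38 (adjusted p = 1.74e-06 and 4.35e-08). ins-17 had 78.7, 31.7, 124, 82.2 and 72.7 CPM in AWB, and its difference was smaller (0.91 ± 0.26, adjusted p = 0.0133) and not called without AWB 52 (adjusted p = 0.0634).

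AWB 51 was the lowest AWB library for 17 of the 27 tested members. Its AWB markers summed to 28.8 CPM, against 536, 148, 583 and 454 CPM in AWB 50, 52, 53 and 54, and its pan-neuronal markers to 592 CPM against 1342 to 3425 CPM. Its pharyngeal muscle markers summed to 2938 CPM. The part of these cells in the levels was not tested. With AWA 20 and AWB 51 left out, 6 members were called in AWB against the other types, as with them.

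Against pan-neuronal libraries, 2 members were higher in AWB and 16 lower, where 19.6% of all genes were higher and 24.1% lower. The median log2 difference was -2.04 over the tested members and -0.058 over all genes. All 12 pan-neuronal markers were lower in AWB too, with a median of -1.89, while 9 of 12 body-wall muscle markers and 7 of 12 intestine markers were higher. In the other types 3 to 9 of the 12 pan-neuronal markers were lower than in pan-neuronal libraries, with medians from -1.53 in ASG to -0.27 in DD. Their part in the members' differences was not tested. ins-21 was higher (4.28 ± 0.71, adjusted p = 3.05e-05), with 1.48 to 6.57 CPM in pan-neuronal libraries. ins-35, an agonist gene, was also called (2.64 ± 0.95, adjusted p = 0.0241) at 4.002 ± 3.16 CPM in AWB (n = 5) and 0.608 ± 0.723 CPM in pan-neuronal libraries (n = 5), a call that was lost without AWB 51, 52 or 53 or pan-neuronal 11 or 12 (adjusted p = 0.0506 to 0.0941). daf-28 averaged 267 ± 234 CPM in AWB and 263 ± 37.05 CPM in pan-neuronal libraries (SD, n = 5 each) and was not called, nor were ins-1, ins-18 and ins-27. Lower in AWB were ins-17 (-3.22 ± 0.37), ins-28 (-5.37 ± 0.71), ins-29 (-5.96 ± 0.77), ins-10 (-5.22 ± 0.86) and 12 more members. ins-30 was called lower (-1.82 ± 0.64, adjusted p = 0.021), but its difference was -0.20 (adjusted p = 0.778) without pan-neuronal 1. Without that library 3 members were higher and 12 lower in AWB.

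AVG, an interneuron that pioneers the right ventral nerve cord, was marked within the family by ins-17. In AVG 43, 44 and 45 it had 1206, 941 and 604 CPM, and in no library of another type did it pass 124 CPM (AWB 52). The log2 difference from the other types was 5.0003 ± 0.25 (adjusted p = 4.55e-17), with no overlap. It was the sole member higher in AVG, and 0 were lower, where 7.24% of all genes were higher and 4.29% lower. At an unadjusted p under 0.05, a threshold with no share of all genes here, 1 was higher and 9 lower. DESeq2 called 1 higher and 2 lower, and library totals alone gave 1 higher and 1 lower (daf-28). Against pan-neuronal libraries, with 609 to 870.0 CPM, ins-17 was not called (0.36 ± 0.38, adjusted p = 0.491).

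Almost all other members were low in AVG. Against pan-neuronal libraries 19 were lower and 0 higher, where 19.7% of all genes were lower and 11.7% higher. The median log2 difference of the tested members was -4.03, or -3.56 with the 6 members that had no counts in AVG set at their limit, and that of all genes was -0.11. ins-10 had 0 counts in the 3 AVG libraries and was at least 50.7-fold lower than in pan-neuronal libraries. ins-28 had 10.55, 0 and 0 CPM in AVG (-6.07 ± 0.93, adjusted p = 8.37e-06) and daf-28 18.5, 7.33 and 2.40 CPM (-4.60 ± 0.76, adjusted p = 2.25e-05). With pan-neuronal 1 left out 15 members were lower.

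**Figure D5:**
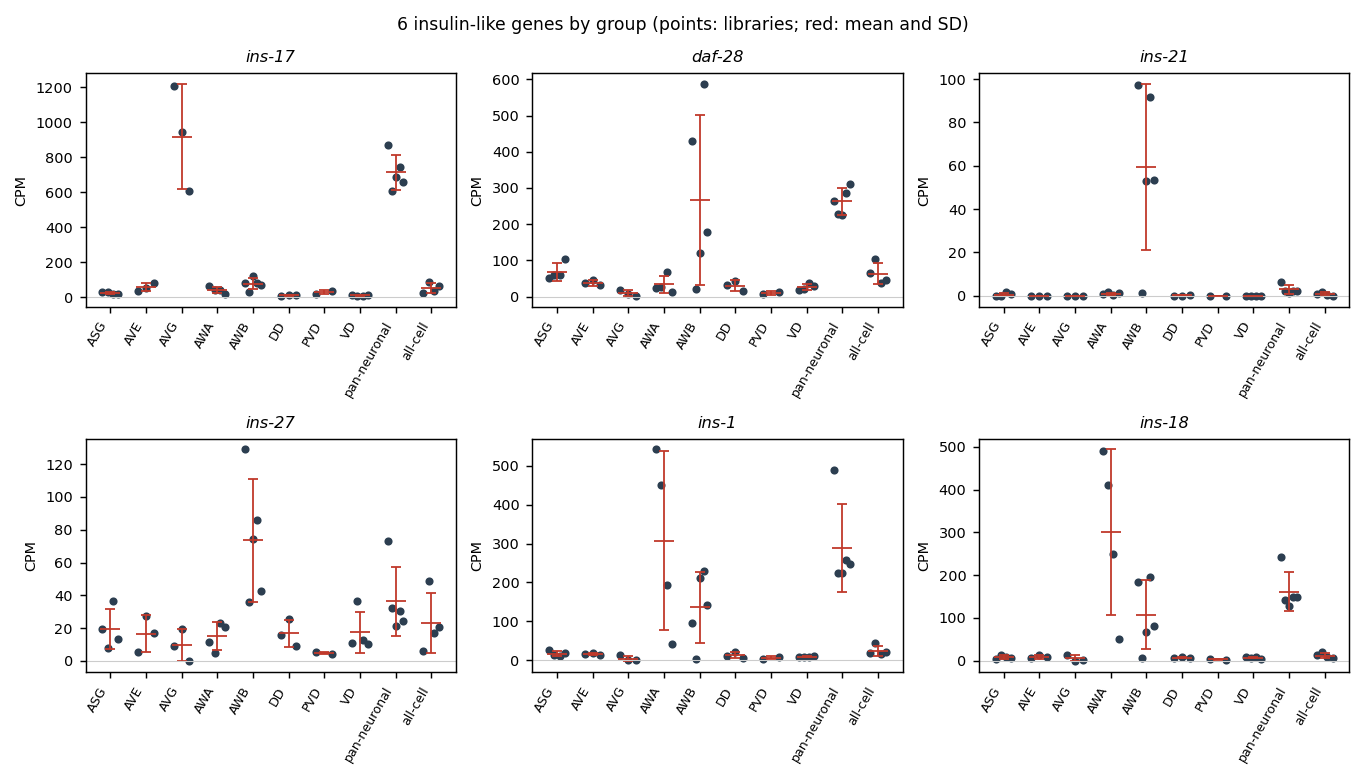
Levels of ins-17, daf-28, ins-21, ins-27, ins-1 and ins-18 by group in CPM, with each library as a point and the mean and SD as a bar. ins-17 is at 604 CPM or more in AVG and pan-neuronal libraries and at most 124 in other types. ins-21 is above 50 CPM in 4 of 5 AWB libraries and at most 6.57 CPM outside AWB.

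ASG, an amphid chemosensory neuron known to take part in dauer control, had most members at low levels. Against the other types 4 members were higher and 1 lower, where 16.8% of all genes were higher and 13% lower. daf-28 had 50.4, 59.997, 58.3 and 103 CPM in ASG, a log2 difference of 1.14 ± 0.41 (adjusted p = 0.0318), and ins-6 had 11.3, 19.999, 18.9 and 36.8 CPM (1.83 ± 0.54, adjusted p = 0.00874). ins-26 had 15.2, 32.8, 26.3 and 78.5 CPM (1.47 ± 0.56, adjusted p = 0.0433), and ins-23 averaged 2.56 CPM (2.50 ± 0.68, adjusted p = 0.00556). ins-17 was lower, with 31.8, 31.2, 17.3 and 20.5 CPM (-0.93 ± 0.32, adjusted p = 0.028). All of these overlapped other types. ASG 16 held the highest values of daf-28, ins-6 and ins-26 in the group, and without it 1 member was called. The call of ins-26 was also lost without AVE 42, AWA 19, DD 83 or DD 86 (adjusted p = 0.0508 to 0.276 over these and ASG 16), and that of ins-17 in 11 of the fits without 1 library (adjusted p = 0.0545 to 0.128). With library totals alone, which moved the median over all genes by -0.33, 2 members were higher (ins-6 and ins-23) and 1 lower (ins-17). daf-7, known from ASI as daf-28 is, stood at 1887 to 5367 CPM in ASG libraries. The ASH gene sra-6 and the ASK gene srbc-64 were at 0 there. All 11 markers of other amphid neurons, the ASJ genes trx-1 and ssu-1 included, summed to 1899 to 5371 CPM. That is near the range of daf-7 alone. The part of other amphid neurons in these levels was not tested.

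Against pan-neuronal libraries 15 members were lower in ASG and 0 higher, where 20.8% of all genes were lower and 16.8% higher (12 lower without pan-neuronal 1). Tested members had a median log2 difference of -1.94 and all genes of 0.0070. ins-17 differed by -4.82 ± 0.44, ins-10 by -6.77 ± 0.96, ins-25 by -5.36 ± 0.89 and ins-1 by -4.06 ± 0.72. The agonist gene daf-28 differed by -1.95 ± 0.55 (adjusted p = 0.00467), and the calls of ins-5, ins-6 and ins-30 were lost without pan-neuronal 1 (adjusted p = 0.118, 0.669 and 0.723).

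AVE, a command interneuron for backward movement, had no member called against the other types, where 10.3% of all genes were higher and 3.37% lower (0 by edgeR and 0 by DESeq2, 1 higher and 0 lower at an unadjusted p under 0.05). Its leading member ins-17 had 34.5, 55.2 and 81.6 CPM. By CPM per kb ins-27 (53.9 ± 35.8), ins-30 (53.4 ± 23.9), ins-28 (50.4 ± 9.12) and daf-28 (49.3 ± 9.28) came next, close together. In CPM daf-28 had 36.7, 45.2 and 31.1 and ins-30 had 20.5, 52.7 and 35.0. Against pan-neuronal libraries 17 members were lower in AVE and 0 higher, where 20.5% of all genes were lower and 13.1% higher (12 lower without pan-neuronal 1). The median log2 difference was -2.85 over the tested members and -0.12 over all genes. ins-17 differed by -3.64 ± 0.46 (adjusted p = 5.02e-07), ins-28 by -4.26 ± 0.80 and ins-18 by -4.18 ± 0.76. Pan-neuronal markers summed to 2241 to 3450 CPM in AVE and 7687 to 8778 CPM in pan-neuronal libraries. Body-wall muscle markers summed to 23994 to 30716 against 11216 to 14468 CPM, and germline markers to 1566 to 2056 against 316 to 501 CPM. Coelomocyte markers overlapped, at 4.32 to 10.04 against 9.01 to 20.7 CPM. The part of other cells in these levels was not tested.

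The GABAergic motor neurons DD and VD had low levels of nearly all members. Against pan-neuronal libraries 22 members were lower and 2 higher in DD, where 20.8% of all genes were lower and 18.3% higher. In VD 23 were lower and 2 higher, where 28.5% were lower and 27.7% higher. Median log2 differences of the tested members were -3.82 in DD and -4.34 in VD, against 0.064 and 0.078 for all genes. ins-17 had its lowest group means here, with 9.27, 13.5 and 12.42 CPM in DD and 11.8, 6.19, 8.89 and 14.98 CPM in VD, log2 differences of -5.90 ± 0.52 and -6.07 ± 0.46 from pan-neuronal libraries. Against the other types the differences were -2.16 ± 0.40 in DD (adjusted p = 0.000342) and -2.35 ± 0.35 in VD (adjusted p = 1.35e-05).

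The members higher in DD and VD than in pan-neuronal libraries were ins-33 and the agonist gene ins-35, both at low levels. ins-35 had 8.56, 3.01 and 13.3 CPM in DD and 8.55, 25.7, 6.58 and 12.1 CPM in VD, against 0.526, 0.429, 1.85, 0.235 and 0 CPM in pan-neuronal libraries. The log2 differences were 3.73 ± 0.87 for DD (adjusted p = 0.00116) and 4.38 ± 0.84 for VD (adjusted p = 7.95e-05), with no overlap in either. ins-33 averaged 4.28 ± 1.98 CPM in DD (n = 3), 6.06 ± 2.78 CPM in VD (n = 4) and 0.819 ± 0.429 CPM in pan-neuronal libraries (n = 5), with log2 differences of 2.22 ± 0.75 and 2.74 ± 0.70, the DD call being lost without DD 83 (adjusted p = 0.0741). It passed the filter through VD alone, so the filter favoured a difference there.

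In VD against the other types 2 members were higher (ins-33 and ins-35) and 5 lower (ins-3, ins-14, ins-17, ins-26 and ins-28), where 13.9% of all genes were higher and 6.81% lower. In DD 0 were higher and 1 lower (ins-17), where 3.77% were higher and 1.73% lower. The calls of ins-3, ins-14, ins-28 and ins-33 in VD were each lost in 3 to 6 of the fits without 1 library. For ins-3 the adjusted p ran from 0.0513 to 1, the value of 1 coming without AVG 43, where AVG is left with no counts of it. Markers of other cells were also higher in VD than in the other types, with 3 of 3 coelomocyte markers (median 4.77), 9 of 12 hypodermis markers and 2 of 5 glia markers. VD 78, with the highest sum of coelomocyte markers, was the highest VD library for ins-33 (10.2 CPM) and ins-35. Without it ins-33 was not called against the other types (adjusted p = 0.0918), and ins-35 still was (2.14, adjusted p = 0.0356). The part of these cells was not tested. Leaving out AWA 20 and AWB 51 gave 11 members in VD and 2 in DD. DD and VD set against each other gave 0 members higher and 0 lower, where 0.0856% of all genes were higher and 0.0988% lower. At an unadjusted p under 0.05, 1 member was higher and 0 lower in DD, and DESeq2 called 0.

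PVD had 2 libraries and the lowest summed level, at 103 ± 20.3 CPM (SD, n = 2). ins-17 led with 19.8 and 36.9 CPM in PVD 62 and 63, against 609 to 870.0 CPM in pan-neuronal libraries (log2 difference -4.69 ± 0.60, adjusted p = 1.82e-06). Against pan-neuronal libraries 19 members were lower and 0 higher, where 13.8% of all genes were lower and 8.84% higher. The median log2 difference of the tested members was -4.92, or -3.55 with the 7 members at 0 counts in PVD set at their limit, and that of all genes was -0.10. Without PVD 62, the other library being assumed to vary like the rest, 6 members were called, so that count rests on few libraries. Against the other types 0 members were higher and 0 lower by edgeR, where 4.43% of all genes were higher and 0.817% lower. DESeq2 also called 0 higher and 0 lower. At an unadjusted p under 0.05, 0 were higher and 9 lower. The shares of all genes are at adjusted p and do not apply to that count.

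Position in the genome was set beside these levels. In the chromosome I group of 7, each member reached 20 CPM on average in some type, and 6 were highest in AWA and 1 in AWB (ins-27). In the chromosome II group of 6, 3 reached that level (ins-3, ins-4 and ins-6), all highest in AWA, as were both genes of the pair ins-14 and ins-15. In the chromosome III group of 3, ins-21 was highest in AWB and ins-22 in AWA, although they lie within 10023752 to 10028697. Of the 17 members highest in AWA, 12 lie in a positional group and 5 alone (ins-1, ins-9, ins-10, ins-18 and ins-32), beside 25 and 14 of all 39 members.

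The 12 members that did not pass the low-count filter were ins-2, ins-7, ins-8, ins-11, ins-12, ins-16, ins-19, ins-20, ins-31, ins-34, ins-36 and ins-39. Their highest value in any library ran from 0.22 CPM (ins-8, a count of 1 in VD 81) to 12.9 CPM (ins-2, in AWA 17). ins-7, an agonist gene known from the intestine, had at most 2.59 CPM, in pan-neuronal 10. A fit without the filter, over 29434 genes, called from 0 to 5 of them in a comparison. ins-36 had 2.65, 6.40, 2.63 and 2.12 CPM in ASG and at most 1.25 CPM in other types (log2 difference 3.74, adjusted p = 4.64e-05). ins-34 had 1.31, 0.644, 0.741, 1.65 and 1.02 CPM in pan-neuronal libraries and 0 counts in all-cell libraries (adjusted p = 0.0138). Both are among the members whose exons overlap another gene. The others called against the other types were ins-19 in AVE, ins-2 in AWA, ins-39 in AWB and ins-20 in PVD, with log2 differences from 3.71 to 4.70. These calls rest on few counts. ins-19 had 2, 1 and 0 counts in the AVE libraries, and ins-20 had 5 and 1 in PVD. ins-39 had 1, 4, 1, 1 and 0 counts in AWB 50 to 54, and ins-2 had 17, 5, 1 and 3 in AWA 17 to 20. The share of all genes called in this fit is not given here.

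The genes through which the peptides signal were compared from a list of 11 (daf-2, age-1, aap-1, ist-1, pdk-1, akt-1, akt-2, sgk-1, pptr-1, shc-1 and daf-16). In pan-neuronal against all-cell libraries 7 were higher and 0 lower, beside 32.2% and 26.9% of all genes tested. The receptor gene daf-2 had a log2 difference of 1.505 ± 0.40 (adjusted p = 0.00202), the kinase gene akt-2 of 2.50 ± 0.34 (adjusted p = 4.73e-07) and daf-16 of 1.57 ± 0.44 (adjusted p = 0.00293). AWA, where the most members were high, had 1 signalling gene higher than pan-neuronal libraries (shc-1) and 0 lower, beside 18% and 19.8% of all genes. daf-2 averaged 887 ± 335 CPM in AWA (n = 4) and 525 ± 218 CPM in pan-neuronal libraries (SD, n = 5). The other types had from 0 to 3 higher and from 0 to 4 lower, beside 8.84% to 27.7% of all genes higher and 13.8% to 28.5% lower, with ASG at 3 higher (daf-2, ist-1 and shc-1) and 0 lower. The call of daf-2 in ASG was lost without ASG 14 (adjusted p = 0.0529). Without pan-neuronal 1 the signalling genes called were 2 in AVE (4 with it), 1 in AVG (0), 2 in AWA (1), 5 in AWB (3), 0 in DD (1) and 3 in VD (5).

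Of 12 genes of peptide processing and dense-core vesicle release (egl-3, kpc-1, bli-4, aex-5, egl-21, sbt-1, unc-31, ida-1, hid-1, pkc-1, tom-1 and asna-1), 9 were higher and 1 lower in pan-neuronal than in all-cell libraries, where 32.2% of all genes were higher and 26.9% lower. egl-3, the main neuronal proprotein convertase, differed by 3.52 ± 0.54 (adjusted p = 3.02e-06) and egl-21, a carboxypeptidase, by 3.28 ± 0.54 (adjusted p = 8.05e-06). The lower gene was the convertase bli-4 (-1.18 ± 0.28), which also acts in the cuticle. In AWA 6 of the 12 were lower than in pan-neuronal libraries and 0 higher, beside 19.8% and 18% of all genes. The median over these 12 genes was -1.44, and over the 12 pan-neuronal markers -1.16. egl-3 averaged 3192 ± 1915 CPM in AWA and 9046 ± 2033 CPM in pan-neuronal libraries (-1.50 ± 0.49, adjusted p = 0.0148, or 0.0628 without AWA 20). ida-1, a vesicle protein, differed by -2.18 ± 0.48 in AWA (adjusted p = 0.000432). The other types had from 3 to 8 of these genes lower than pan-neuronal libraries and from 0 to 2 higher, beside the shares of all genes given for the signalling genes, among them the convertase kpc-1 in AVG (0.72 ± 0.28) and PVD (1.43 ± 0.31). The kpc-1 calls were lost without any of 6 libraries in AVG (adjusted p = 0.0734 to 0.590) and without PVD 63 in PVD (adjusted p = 0.191).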

How the data were processed

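The table deposited by the authors holds 1 column of raw counts for each library and a column of gene lengths, and its name gives the WormBase release WS274. STAR, SAMtools and featureCounts were used per the submitters' processing notes. Their versions, the build and strand use are not given in the sources used. Per the labels' protocols a FACSAria III sorted cells into Trizol LS, chloroform extraction gave the RNA, and the Tecan SoLo Ovation kit the libraries.

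CPM values were computed as counts divided by the library total times its TMM factor (0.729 to 1.33), and CPM per kb from the deposited lengths. All genes were tested in 1 quasi-likelihood fit over 37 libraries with edgeR 4.0.16 in R 4.3.3 (filterByExpr by group, common dispersion 0.226, 15181 genes tested, 27 of them members). The 18 contrasts set pan-neuronal against all-cell libraries, each type against pan-neuronal libraries and against the mean log2 level of the other 7 types, and DD against VD. Calls were made where the adjusted p (Benjamini-Hochberg, over all genes tested) was under 0.05. The standard error of a log2 difference is its size divided by the square root of the F statistic. Comparisons with the pan-neuronal group share its libraries. Fold limits set a mean CPM against 3 counts over the group with none, and cover counting error only.

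The labels do not say whether replicate libraries had their own cultures. The p-values then measure only the spread between these samples, possibly a technical one. In 54 pairs of libraries of the same group, counts differed by 2.22 to 85.9 in chi-square per degree of freedom, and no pair was counted as 1 sample. Library values are printed for members called in a comparison with at least 20 CPM on average in the higher group, or with the highest CPM per kb of a group, in the groups the comparison concerns, and other values as ranges or means. Members, gene lists and tests were chosen with earlier results of these data known. A gene of the signalling list is not reported here. Gene positions come from the WBcel235 annotation by gene ID. The fit was tested on simulated counts. The shares of genes without overlap and the values of members under the filter were added after seeing the data. The alternatives were DESeq2 size factors, library totals alone, no low-count filter, the DESeq2 1.42.0 Wald test, fits of only the groups compared, the omission of each library, and AWA 20 and AWB 51 left out together. Leaving out pan-neuronal 1 with both of these was chosen after seeing the data.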

Additional observations from a re-analysis of the deposited data

Results flagged for a closer look

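Single libraries that stood far from the rest of their group were looked for among the 21 members with at least 20 CPM in some group, in 58 groups of 4 or 5 values. A library was singled out when its gap to the nearest other value exceeded the critical share of the group's range in Dixon's test. Chance singles out about 1 in 20 such groups, and 13 (22.4%) were singled out here, 12 of them in pan-neuronal 1. These 12 values share their library and are not independent of each other.

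In pan-neuronal 1 the values far above the other 4 pan-neuronal libraries were, in CPM, 489 for ins-1 (others up to 258), 138 for ins-3 (37.3), 79.9 for ins-4 (16.4), 255 for ins-6 (32.5), 147 for ins-10 (76.5) and 100.2 for ins-14 (19.3). They were also 242 for ins-18 (others up to 149), 334 for ins-24 (28.2), 369 for ins-26 (61.1), 73.1 for ins-27 (32.2), 264 for ins-29 (104.3) and 417 for ins-30 (40.7). In AWA 17, ins-25 had 73.7 CPM, where the other AWA libraries had 9.59 to 13.3 CPM.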

How the results depend on the processing

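No paired analysis was possible because no library number occurs in more than 1 group. Of 291 log2 differences of called members and pathway genes, 290 stayed called in the same direction with DESeq2 size factors, 277 with library totals alone, 282 without the low-count filter, 290 with the DESeq2 Wald test and 271 of 279 with the compared groups alone. With pan-neuronal 1, AWA 20 and AWB 51 left out, 234 of 251 did, and ins-30 in AWB against pan-neuronal libraries turned to 0.14 (edgeR adjusted p = 0.792). The cause was not tested. Counts without the filter and by the DESeq2 test are over all 39 members, where those reported are over 27. Counts of members called against the other types that moved by over 1.5 times were, in ASG, 3 with library totals and 3 with the compared groups alone (5 as reported), in AVE 1 without the filter (0), in AVG 2 with library totals, 3 with the DESeq2 test and 4 without AWA 20 and AWB 51 (1), in DD 2 without these libraries (1), in PVD 1 without the filter and 3 without these libraries (0), and in VD 15 with the DESeq2 test and 11 without these libraries (7). Setting aside 1 library at a time gave 14 to 20 members in pan-neuronal against all-cell libraries, and against pan-neuronal libraries 12 to 17 in ASG, 12 to 20 in AVE, 15 to 19 in AVG, 13 to 16 in AWA, 14 to 18 in AWB, 21 to 24 in DD, 6 to 19 in PVD (6 without PVD 62) and 23 to 26 in VD. Against the other types the ranges were 1 to 6 in ASG (1 without ASG 16), 0 to 0 in AVE, 1 to 4 in AVG (4 without AVG 43), 19 to 21 in AWA, 5 to 7 in AWB, 1 to 1 in DD, 0 to 1 in PVD (1 without AWB 51) and 3 to 11 in VD (3 without VD 78, 11 without AVG 45), and 0 to 0 between DD and VD. Of 207 calls of a member, 152 were kept in every such fit and 55 were lost in some, 25 of them without pan-neuronal 1. Thinned to the 251586 counts of the shallowest library, the mean number of members with a count was 17 in ASG (27.5 at full depth), 18.7 in AVE (27.7), 9.78 in AVG (14.3), 24.5 in AWA (32), 19.2 in AWB (24.4), 15.1 in DD (25.7), 12.9 in PVD (18), 14.4 in VD (27.5), 23.9 in pan-neuronal (34.4) and 20.1 in all-cell libraries (27.8). Thinning can only lower or keep this number, so the direction of the change is no result. In AVG the change was less than the SD over its libraries. AVG had the fewest at both depths.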
